A study of Mus musculus with 18 samples.

Results

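Open chromatin regions that lie between genes but close to a coding gene were examined in liver macrophages (LMs) of the mouse. A region of the deposited list was taken when its midpoint on chromosomes 1 to 19 fell outside every gene of any type, more than 1 kb from every transcript start of any type, and at most 50 kb from the start of the nearest protein-coding gene. There were 14576 such near intergenic regions, or 21.0% of the 69499 regions in the list and 21.3% of the 68533 on chromosomes 1 to 19. The other regions on these chromosomes were within 1 kb of a start (20445), in an exon (2469), in an intron (23376), or between genes and farther than 50 kb from any coding start (7667, far intergenic).

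The list came from fast-ATAC-Seq, in which the transposase Tn5 inserts adapters into accessible DNA, on 50000 isolated LMs per reaction. The series held 18 libraries in 6 groups, with 3 replicates each of the genotypes Control, ReverbhDKO, and Reverb/ScaphTKO at ZT10 and at ZT22 (zeitgeber time, the hours since lights on). All mice were C57BL/6J males fed a high fat and sucrose diet (D12492i) for 4 weeks. The virus was given at 8 weeks of age and carried Cre behind the hepatocyte promoter TBG (AAV-TBG-CRE), or GFP in Control (AAV-TBG-GFP), so that the genes for both REV-ERBs, without or with *Scap*, were deleted in hepatocytes while the LMs kept them. Reads of replicates had been merged before peaks were called, and 1 list joined all groups. It gave only the position of each region, with no count or score. The depth of the libraries is unknown, and no region could be compared between genotypes, times, or replicates. What follows describes the DNA and the neighboring genes of regions that were open in at least 1 merged group.

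Open regions between genes include enhancers, stretches of DNA that bind transcription factors and raise transcription of a gene at a distance. In macrophages, the lineage factor PU.1 opens many of these sites together with AP-1, C/EBP, RUNX, and IRF proteins, and signals such as inflammation or lipid loading act on them. Other intergenic sites bind CTCF, which insulates neighboring domains and anchors chromatin loops. REV-ERBs bind the ROR element (RORE), clock activators bind the E-box, and SREBPs, the factors that SCAP escorts for activation, bind the sterol response element (SRE).

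The sequences of 10 near intergenic regions are shown because they hold the motifs on which the account turns, beside genes whose roles are known. All coordinates are of mm9, sequences are the plus strand of the NCBIM37 assembly, and each region lies outside every annotated gene. Capitals mark only the motif named for each region, on either strand. Other motifs stay in lower case, such as an HNF4 motif in the region near *Id3* and an E-box in the one near *Cps1*. The first pair hold AP-1 motifs near the Kupffer cell genes *Id3* (19.9 kb upstream of the start, a regulator of lineage identity) and *Clec4f* (21.8 kb downstream, a Kupffer cell lectin).
Id3 AP-1 (chr4:135679441-135679647): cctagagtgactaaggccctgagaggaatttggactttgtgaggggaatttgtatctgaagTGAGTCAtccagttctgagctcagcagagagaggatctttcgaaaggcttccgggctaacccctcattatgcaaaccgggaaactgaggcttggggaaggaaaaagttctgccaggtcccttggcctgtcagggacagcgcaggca
Clec4f AP-1 (chr6:83584209-83584359): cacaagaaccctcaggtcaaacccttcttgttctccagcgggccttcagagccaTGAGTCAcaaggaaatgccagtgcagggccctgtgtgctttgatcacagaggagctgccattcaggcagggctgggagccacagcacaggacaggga
Near hepatocyte genes, a FOXA motif was found 6.22 kb upstream of *Cps1*, a urea cycle enzyme, and an HNF4 motif 21.5 kb upstream of *Alb*, which encodes serum albumin.
Cps1 FOXA (chr1:67163237-67163524): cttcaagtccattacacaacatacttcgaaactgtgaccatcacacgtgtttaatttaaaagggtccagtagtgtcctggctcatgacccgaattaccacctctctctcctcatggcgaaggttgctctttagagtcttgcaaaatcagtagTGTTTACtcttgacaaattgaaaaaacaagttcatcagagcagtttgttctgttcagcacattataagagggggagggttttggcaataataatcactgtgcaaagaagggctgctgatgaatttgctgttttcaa
Alb HNF4 (chr5:90868269-90868469): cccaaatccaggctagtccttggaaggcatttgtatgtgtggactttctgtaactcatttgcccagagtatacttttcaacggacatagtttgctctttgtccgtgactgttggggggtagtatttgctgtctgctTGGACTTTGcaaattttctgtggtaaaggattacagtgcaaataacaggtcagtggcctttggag
Near clock genes, E-boxes were found 1.24 kb upstream of *Bhlhe41*, a repressor of clock activators, and 8.22 kb upstream of *Nr1d1*, which encodes REV-ERBα.
Bhlhe41 E-box (chr6:145815216-145815421): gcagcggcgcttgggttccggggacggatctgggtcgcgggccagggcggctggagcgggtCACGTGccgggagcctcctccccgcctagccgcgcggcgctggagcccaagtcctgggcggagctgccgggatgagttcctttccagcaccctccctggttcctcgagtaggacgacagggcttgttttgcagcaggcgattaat
Nr1d1 E-box (chr11:98644729-98645000): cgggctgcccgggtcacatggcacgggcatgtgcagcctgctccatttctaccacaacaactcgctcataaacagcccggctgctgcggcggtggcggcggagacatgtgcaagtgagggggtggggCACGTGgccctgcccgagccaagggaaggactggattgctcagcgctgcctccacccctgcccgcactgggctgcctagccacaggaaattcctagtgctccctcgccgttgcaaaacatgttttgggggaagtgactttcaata
The next pair are the widest regions of at most 300 bp with both an AP-1 and a PU.1 motif, upstream of *Tekt3* (34765 bp, a gene of sperm flagella) and of *Mtss1* (7930 bp, a regulator of the actin cytoskeleton).
Tekt3 AP-1 and PU.1 (chr11:62840243-62840540): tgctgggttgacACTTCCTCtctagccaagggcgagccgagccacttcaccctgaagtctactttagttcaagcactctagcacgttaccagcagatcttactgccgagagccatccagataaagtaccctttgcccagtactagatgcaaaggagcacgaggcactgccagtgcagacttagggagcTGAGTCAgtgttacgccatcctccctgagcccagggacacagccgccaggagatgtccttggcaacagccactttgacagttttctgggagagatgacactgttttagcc
Mtss1 AP-1 and PU.1 (chr15:58921365-58921658): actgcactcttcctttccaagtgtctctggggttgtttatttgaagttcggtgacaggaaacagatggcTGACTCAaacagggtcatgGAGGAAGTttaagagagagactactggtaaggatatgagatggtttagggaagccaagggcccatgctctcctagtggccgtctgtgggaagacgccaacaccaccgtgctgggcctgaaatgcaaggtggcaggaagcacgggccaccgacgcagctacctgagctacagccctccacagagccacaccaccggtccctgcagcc
The last pair hold the CTCF motif upstream of *Ppara* (25.4 kb, a nuclear receptor of fatty acid oxidation) and *Ptp4a2* (25.8 kb, a protein tyrosine phosphatase), both among the genes with the most near intergenic regions.
Ppara CTCF (chr15:85539855-85540105): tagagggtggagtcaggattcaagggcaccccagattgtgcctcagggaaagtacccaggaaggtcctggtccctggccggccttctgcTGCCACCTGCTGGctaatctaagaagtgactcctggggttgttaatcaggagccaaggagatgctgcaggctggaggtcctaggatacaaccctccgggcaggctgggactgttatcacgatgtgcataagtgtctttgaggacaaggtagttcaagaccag
Ptp4a2 CTCF (chr4:129462521-129462714): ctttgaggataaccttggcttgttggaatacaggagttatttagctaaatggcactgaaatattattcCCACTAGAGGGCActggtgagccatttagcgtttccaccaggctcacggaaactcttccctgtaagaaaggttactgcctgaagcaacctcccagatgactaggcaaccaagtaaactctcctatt

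Near intergenic DNA was dense in open regions compared with DNA farther from genes. Of the assembled bases of chromosomes 1 to 19, 487 Mb (20.3%) met the rule, and they held 29.9 regions per Mb (95% Poisson interval 29.4 to 30.4). The density was 8.73 per Mb (8.53 to 8.92) in far intergenic DNA and 26.9 (26.5 to 27.2) in introns. It was higher in exons, with 41.7 (40.1 to 43.4), and within 1 kb of a start, with 205 (202 to 208). Over all bases of these chromosomes it was 28.6 (28.4 to 28.8), close to the near intergenic value. The ratio of near to far intergenic density was 3.43, and the near density was the higher one on 19 of 19 chromosomes. These intervals cover counting error only and treat regions as independent, although neighboring regions are not, so the number of chromosomes with the same direction is given beside them. The regions covered 2675729 bp, or 0.549% of the DNA that met the rule.

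Density was highest just beyond the promoter and dropped with distance. From 1 to 2 kb from the nearest coding start there were 46.7 regions per Mb (43.6 to 50.0), from 2 to 5 kb 33.0 (31.5 to 34.6), from 5 to 10 kb 34.0 (32.8 to 35.3), from 10 to 20 kb 31.2 (30.2 to 32.2), and from 20 to 50 kb 25.5 (24.8 to 26.2). The bins from 2 to 10 kb did not differ beyond their intervals, whereas the nearest and the farthest bin differed by a factor of 1.83. The median distance was 14.5 kb (quartiles 6.71 and 27.1 kb). The 2 regions just inside the inner limit lay 1001 and 1002 bp from a start and the 2 just outside it 1000 and 999 bp, and at the outer limit the distances were 49997 and 49994 bp inside and 50011 and 50020 bp outside.

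**Figure D1:**
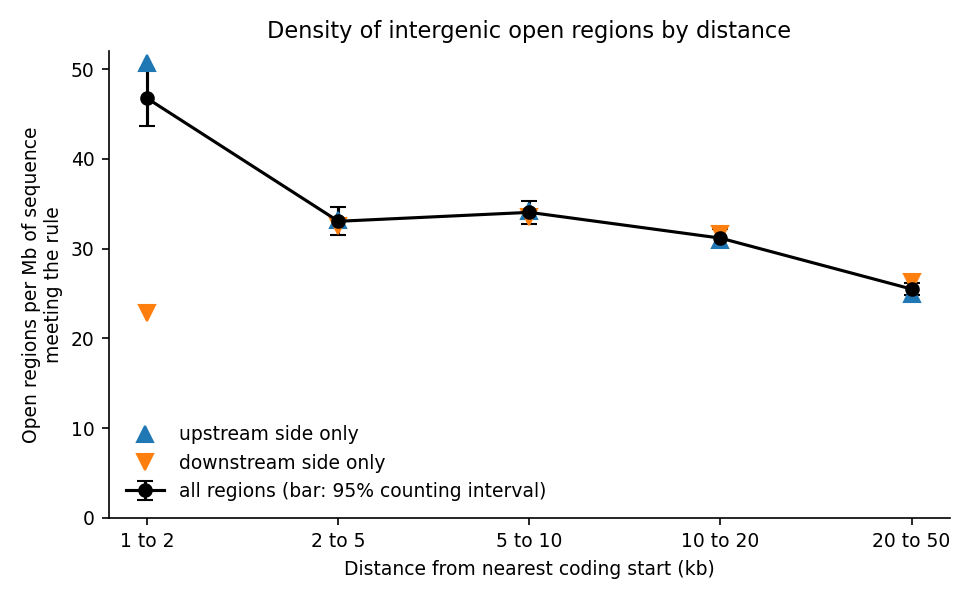
Near intergenic open regions per Mb of DNA that met the rule (y axis) against distance from the nearest coding start in kb (x axis, 5 bins). Black points are all regions with 95% Poisson intervals, and triangles are the upstream and downstream sides separately. The sides differ in the bin from 1 to 2 kb (50.7 upstream against 22.9 downstream per Mb) and lie close together beyond it.

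Most regions were upstream of the nearest coding start, and so was most of the DNA available to them. Of the 14576 regions, 9876 (67.8%, 95% Wilson interval 67.0 to 68.5) were upstream by the strand of that gene, beside 66.9% of the bases that met the rule. The share ranged from 64.0% to 73.4% over chromosomes. In the 4 bins beyond 2 kb the interval of the upstream share included the share of bases. From 1 to 2 kb, 781 of 839 regions (93.1%, 91.2 to 94.6) were upstream beside 85.9% of the bases, which gave 50.7 regions per Mb upstream and 22.9 downstream. A region on the downstream side lies past the 3′ end of its gene, which is short or has a transcript start well inside it, since every transcript start was used.

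The nearest gene of any type was protein-coding for 12039 regions (82.6%), a pseudogene for 622, a processed transcript for 546, and a lincRNA for 444. The median distance to it was 8.10 kb. All of the 729 regions (5.001%) within 1 kb of a gene lay past its 3′ end, which follows from the rule, since DNA within 1 kb of a start was left out. In all, 2912 regions (19.98%) lay within 5 kb past such an end.

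The mean width of near intergenic regions was 184 ± 47.3 bp (SD over 14576 regions). Of them, 7328 (50.3%, 49.5 to 51.1) had the commonest width of the list, about 150 bp. This width was also the smallest in start, exonic, intronic, and far intergenic regions, so that widths piled up at a lower limit. What set the limit was not tested. The share of regions with the commonest width was 53.2% (52.1 to 54.3) in far intergenic, 55.2% (54.6 to 55.9) in intronic, and 30.3% (29.6 to 30.9) in start regions. The mean width of the near regions was above that of the far ones by 3.70 bp (95% interval 2.45 to 4.94). It was above that of the intronic ones by 4.21 bp (3.25 to 5.16), and each difference held on 17 of 19 chromosomes. These means include the regions at the lower limit, and the part of those regions in the differences was not tested. A width of 200 bp or more was reached by 4135 regions (28.4%), against 41.4% of start regions. The widest, of 670 bp, lay 28.4 kb downstream of the start of *Nup210*, a nuclear pore gene (chr6:90938665-90939334). The next were 570 bp near *Gprc5c*, 547 bp near *Trp53inp1*, and 536 bp near *Gm15698* and near *Sod1*, the cytosolic superoxide dismutase.

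In base composition, the regions differed from the DNA beside them and from promoters. The 200 bp around their midpoints had a GC content of 51.0 ± 6.40% (SD, n = 14573 without unknown bases), compared with 46.2 ± 7.39% in windows 1 kb to either side, 48.8 ± 6.41% in far intergenic, 50.4 ± 5.90% in intronic, and 61.1 ± 9.21% in start regions. The ratio of observed to expected CpG was 0.276 on average, against 0.216 at either side and 0.648 at starts. A CpG island composition, taken as a GC content of at least 55% with a ratio of at least 0.65, was found in 597 regions (4.10%), in 1.62% of far intergenic, and in 50.3% of start regions.

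Motifs were searched on both strands in the same 200 bp, and a match is a description of the letters, not of binding. AP-1 (TGANTCA, where N is any base) was found in 1596 regions (10.95%, 10.5 to 11.5), in 5.87% of the windows 1 kb to either side, and in 9.07% of all open regions. The share was above that of the side windows on 19 of 19 chromosomes. Most of the matches had the core of the *Id3* and *Clec4f* sequences above, which reads TGACTCA on 1 strand and TGAGTCA on the other: it was present in 8.56% of regions against 3.84% of side windows. The core TGAATCA, read TGATTCA on the other strand, was present in 2.59% and 2.14%. AP-1 proteins, dimers of Fos and Jun family members, prefer the first core.

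The other factors of macrophage enhancers separated into those whose letters were more frequent in the regions and those whose letters were not. PU.1 (GAGGAAGT) was found in 4.60% of regions (4.27 to 4.95), in 1.44% of side windows, and in 4.17% of all open regions. C/EBP (TTGCNCAA), the motif of basic leucine zipper factors that act with PU.1 in myeloid cells, was found in 4.76% (4.43 to 5.12), 1.73%, and 4.17%. RUNX (TGTGGTT) was found in 6.39% (6.00 to 6.80), 5.46%, and 5.09%. IRF (GAAANNGAA), the motif of interferon regulatory factors, was found in 6.36% (5.98 to 6.77), 6.25%, and 5.69%, so that regions and side windows differed by 0.11 percentage points (-0.37 to 0.60). The shares of PU.1 and C/EBP were above the side windows on 19 of 19 chromosomes, RUNX on 15, and IRF on 11.

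Compared with far intergenic and intronic regions, near intergenic regions held AP-1 and PU.1 at similar or slightly lower shares. The AP-1 share differed from the intronic share (11.1%) by -0.19 points (-0.83 to 0.46) and from the far intergenic share (11.98%) by -1.02 points (-1.92 to -0.15), and it was above the latter on 6 of 19 chromosomes. The PU.1 share differed from the far intergenic share (4.88%) by -0.28 points (-0.88 to 0.30) and from the intronic share (5.07%) by -0.48 points (-0.91 to -0.030), and it was above the latter on 3 of 19. Both were lower in exonic regions, with AP-1 in 7.13% and PU.1 in 3.81% of windows, and at starts, with 4.50% and 2.62%. The C/EBP share differed from the far intergenic share (5.60%) by -0.834 points (-1.47 to -0.225) and from the intronic share (4.97%) by -0.209 points (-0.648 to 0.240).

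AP-1 and PU.1 motifs were found together in 72 regions, among them the one near *Mtss1* whose sequence is given above. In the region near *Tekt3* the PU.1 match lies outside the central 200 bp and was not counted. PU.1 was present in 4.51% (3.60 to 5.64) of the 1596 regions with AP-1 and in 4.61% (4.26 to 4.98) of those without it. These intervals overlap, so that no difference was detectable between regions with and without AP-1. No motif of AP-1, PU.1, C/EBP, RUNX, or IRF was found in 10303 regions (70.7%), 1 of them in 3749, 2 in 494, and 3 in 27.

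Among the 20 motifs searched, the one with the largest ratio to the side windows was that of CTCF, searched by its name with a core of 13 letters. A long core matches rarely in any DNA, which affects the ratio, so the order of ratios does not rank the factors. The CTCF motif was present in 402 regions (2.76%, 2.50 to 3.04), in 0.120% of side windows, and in 1.51% of all open regions, a ratio to the side windows of 23.0. It was also more frequent than in far intergenic regions (1.21%, difference 1.55 points, 1.17 to 1.90) and in introns (1.66%, difference 1.10 points, 0.792 to 1.42), each on 18 of 19 chromosomes. Regions downstream of the nearest coding start held it in 3.75% (3.24 to 4.33) and those upstream in 2.29% (2.01 to 2.60). Regions with the motif had a mean width of 190 ± 43.1 bp (n = 402), and those without it 183 ± 47.4 bp. The motif near *Ppara* and *Ptp4a2* is of this kind, and each of these genes had 1 such region among its 13.

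The GC box, typical of promoters, was more frequent than in far intergenic and intronic regions. The SP/KLF motif GGGCGG was present in 9.14% of near intergenic regions (8.68 to 9.62), in 5.37% of far intergenic, 6.23% of intronic, 10.3% of exonic, and 44.4% of start regions, and in 18.3% of all open regions. It was above the far and the intronic share on 19 of 19 chromosomes. Its share was 14.9% from 1 to 2 kb and 8.41% from 20 to 50 kb from a coding start, while that of AP-1 went from 7.87% to 11.6%. The motif holds only G and C, and the part of GC content (51.0% here, 48.8% in far intergenic, and 50.4% in intronic regions) in these shares was not tested. The ETS motif of promoters (CCGGAAGT, which shares the letters GGAAGT with PU.1) was found in 0.721% of regions, in 0.613% of far intergenic, 0.471% of intronic, 1.34% of exonic, and 4.24% of start regions, and in 1.69% of all open regions. Its share differed from the far intergenic one by 0.11 points (-0.13 to 0.32).

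Motifs of clock and lipid factors were also more frequent in the regions than in the side windows. The E-box CACGTG was found in 892 regions (6.12%, 5.74 to 6.52), in 3.17% of side windows, 4.55% of far intergenic regions, and 6.36% of all open regions, and it was above the far intergenic share on 17 of 19 chromosomes. Its share differed from the intronic share (5.96%) by 0.16 points (-0.33 to 0.66). The E-box holds a CpG. Windows held 3.80 CpG on average here, 2.39 at either side, 2.96 in far intergenic, and 3.07 in intronic regions. The part of this composition in the E-box shares was not tested. The E-box is contained in the M-box TCACGTGA of TFEB and MITF factors (0.412%, against 0.196% of side windows and 0.578% of all open regions). The RORE, to which REV-ERBs bind, was found in 76 regions (0.522%) and in 0.257% of side windows, the LXR element DR4 in 32 (0.220%) and 0.0927%, and the SRE (TCACNCCAC) in 134 (0.920%) and 0.607%. In all open regions these shares were 0.449%, 0.215%, and 0.967%. They were 0.639%, 0.261%, and 1.12% in far intergenic regions and 0.590%, 0.334%, and 1.03% in intronic ones, each above the near intergenic share. DR4 differed from the intronic share by -0.114 points (-0.219 to -0.00218), and the intervals of the other differences spanned both signs. The ratio to the side windows was 1.93 for the E-box, 2.03 for the RORE, 2.37 for DR4, and 1.51 for the SRE. The shares and the ratios both depend on the length and letters of each motif. The NF-kB motif, by name, was found in 3.31%, against 2.17% of side windows and 3.28% of all open regions.

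Hepatocyte motifs were present as well. HNF4 (CAAAGTCCA), of the nuclear receptor that maintains hepatocyte identity, was found in 159 regions (1.09%, 0.935 to 1.27), in 0.312% of side windows, and in 1.00% of all open regions. FOXA (TGTTTAC), of the pioneer factors of the endoderm, was found in 607 (4.17%, 3.85 to 4.50), 2.50%, and 3.93%. Both were above the side windows on 19 of 19 chromosomes. The FOXA share differed from the far intergenic share (5.64%) by -1.47 points (-2.09 to -0.872). The HNF4 share differed from its far intergenic share (1.43%) by -0.344 points (-0.675 to -0.0403). From the intronic shares, FOXA (4.92%) differed by -0.759 points (-1.18 to -0.327) and HNF4 (1.31%) by -0.222 points (-0.442 to 0.00625). AP-1 or PU.1 was found in 91 of the 754 regions with HNF4 or FOXA (12.1%, 9.93 to 14.6) and in 15.2% (14.6 to 15.8) of the others. Whether hepatocyte DNA contributed reads to the libraries was not tested, since the list holds no reads.

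The remaining motifs were close to the side windows or below them. The motif AGATAA, to which GATA factors bind, was found in 8.69% of regions, in 10.1% of side windows, and in 7.53% of all open regions, and was above the side windows on 3 of 19 chromosomes. MEF2 (CTAAAAATA) was found in 0.432% against 0.340%, RBPJ (GTGGGAA) in 4.65% against 4.22%, and TEAD (ACATTCCA) in 0.899% against 0.837%. In all open regions these shares were 0.344%, 4.23%, and 0.902%. The GC content was 51.0% in the regions and 46.2% in the side windows. For the motifs of this paragraph and for IRF, the part of base composition in the shares was not tested.

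**Figure D2:**
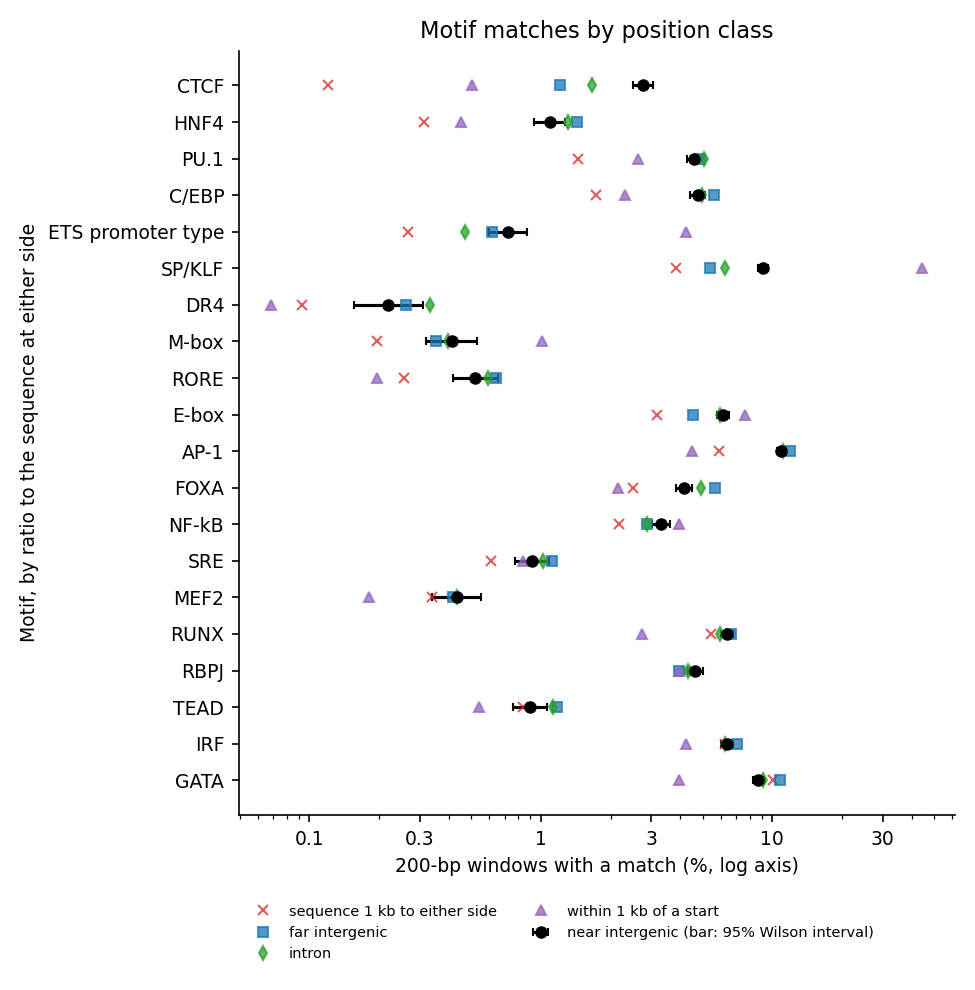
Share of 200-bp windows with a match of each of 20 motifs (x axis, percent, log scale), with motifs ordered on the y axis by the ratio of near intergenic regions to the DNA 1 kb to either side. Black points are near intergenic regions with 95% Wilson intervals, crosses the side windows, and other symbols the far intergenic, intronic, and start regions. CTCF (2.76% against 0.120% of side windows) has the largest ratio and GATA (8.69% against 10.1%) the smallest.

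Matches of several of these motifs were concentrated close to the midpoints. In bins of 25 bp over 500 bp to either side (14563 regions without unknown bases), CTCF reached 0.286 matches per kb at its highest bin against 0.00755 at the edges, a ratio of 37.8. The same ratio was 6.08 for HNF4, 4.66 for PU.1, 3.54 for C/EBP, and 2.43 for AP-1. It was 1.21 for IRF, whose highest bin was not at the center. The highest bin was also away from the center for SRE (250 to 275 bp above the midpoint) and RBPJ (150 to 175 bp above). Below the midpoint it began at 275 bp for GATA, 250 bp for TEAD, 200 bp for MEF2, 150 bp for SP/KLF, and 125 bp for RORE and DR4. The highest bins of CTCF, PU.1, C/EBP, and HNF4 lay from 50 to 25 bp below the midpoint, on the side of lower coordinates. Within 100 bp, 73.5% of the CTCF matches lay on that side, with a mean offset of -26.2 ± 42.0 bp (SD, n = 419 matches), and the mean offsets of HNF4, C/EBP, and PU.1 were -20.8, -17.5, and -16.4 bp. Those of IRF and SP/KLF were 0.468 and -0.365 bp. The chromosome direction carries no gene orientation, and what shifted the regions relative to the motifs was not tested.

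**Figure D3:**
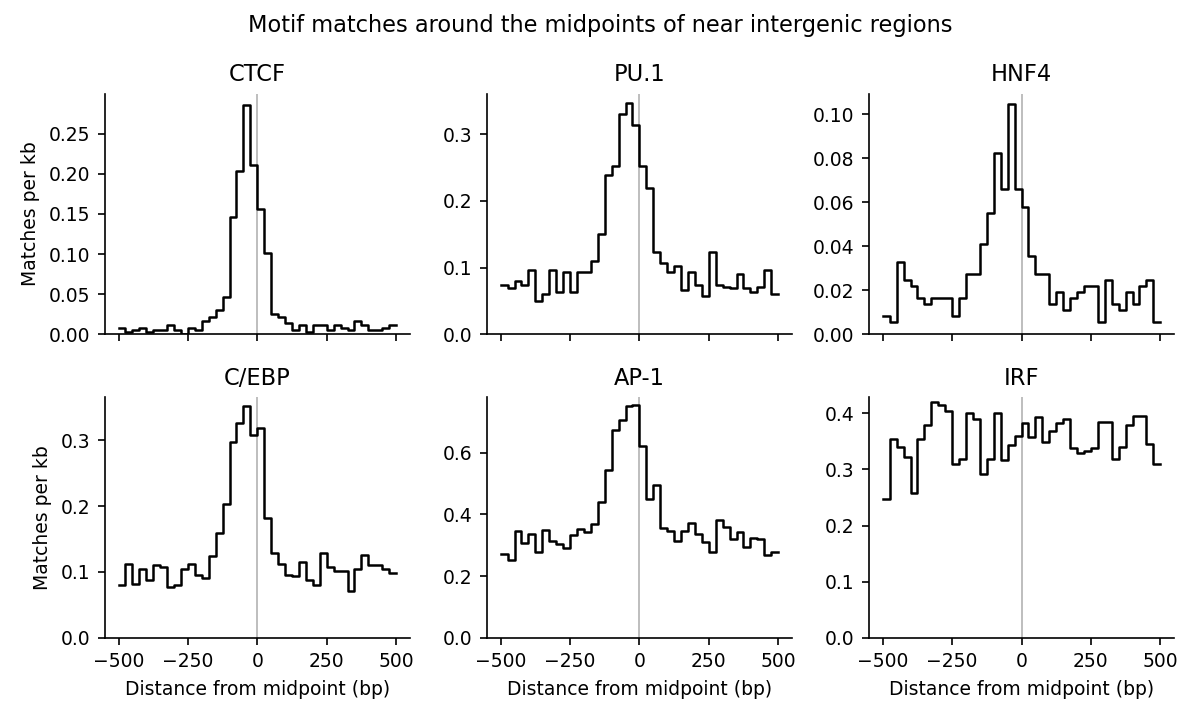
Matches per kb (y axis, with its own scale in each panel) of 6 motifs in bins of 25 bp against the distance from the midpoints of near intergenic regions in bp (x axis, lower coordinates negative). CTCF, PU.1, HNF4, C/EBP, and AP-1 are concentrated below the midpoint, with the highest ratio for CTCF (37.8 over the edges), and IRF is level (1.21).

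The spacing of near intergenic regions is described without a reference value from other classes. Of the near intergenic regions, 7394 (50.7%, 49.9 to 51.5) had another one within 5 kb, and the median gap was 16.9 kb. After regions at most 500 bp apart were joined, the share within 5 kb of another was 40.3%. When regions with gaps of at most 12500 bp between midpoints were joined into strings, 4783 stood alone, 470 strings held 5 or more (3051 regions, 20.9%), and 37 held 10 or more. The longest string held 21 regions over 72.9 kb (chr12:56527464-56600340). Of these, 15 were nearest to *Nfkbia*, which encodes the inhibitor of NF-kB, and 6 to the proteasome gene *Psma6*. The next 3 strings, named after their values were seen, held 16 regions each, between *Egfl7* and the receptor gene *Notch1* (chr2:26381325-26434282), near *Pex26* and *Mical3*, and near *Mical2* and *Dkk3*. Regions in strings of 5 or more had AP-1 in 11.8% and CTCF in 2.10%, and single ones in 10.6% and 3.45%.

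Each region was assigned to the coding gene with the nearest start, which does not show the gene it acts on. By this rule 6775 of 21418 coding genes on chromosomes 1 to 19 (31.6%) had at least 1 near intergenic region. Of them, 3396 had 1 region, 1562 had 2, 1204 had 3 or 4, 558 had 5 to 9, and 55 had 10 or more. Genes whose own start was open, with an open region within 1 kb, had more of them: 37.6% of 12424 such genes had a region and 44.7 per Mb of their near intergenic DNA (43.8 to 45.5), compared with 23.4% of 8994 other genes and 15.98 per Mb (15.5 to 16.5). Regions nearest to an open start also held AP-1 somewhat more often (11.5%, 10.9 to 12.1) than the others (9.51%, 8.64 to 10.5), at the same GC content (51.0% in both).

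The genes with the most regions had varied roles. There were 15 regions each near *Nfkbia*, *Rassf3* (a Ras association domain protein), *Fgd2* (an exchange factor for Cdc42 expressed in myeloid cells), and *3930402G23Rik*. There were 14 near *Fos* (the AP-1 subunit), *Ctla4* (an inhibitory receptor of T cells), and *Rpl30-ps6*, which the annotation lists as coding. There were 13 near *Ppara*, *Ptp4a2*, and *4732465J04Rik*. Per 100 kb of near intergenic DNA, *Rassf3* had 30.6, *Fgd2* 28.7, *Ppara* 28.1, *Nfkbia* 20.1, and *Fos* 14.5 regions, compared with 2.99 over all genes. All regions of *Rassf3* and *Ppara* were upstream of the start, 13 of 15 of *Nfkbia* and of *Fgd2* were downstream, and *Fos* had 5 upstream and 9 downstream. PU.1 motifs were found in 4 of the 14 regions of *Ctla4*, in 2 of *Ptp4a2*, and in 1 each of *Fgd2*, *Ppara*, and *4732465J04Rik*. They were found in 0 of those of *Nfkbia*, *Rassf3*, *Fos*, *3930402G23Rik*, and *Rpl30-ps6*. AP-1 motifs were found in 2 regions each of *Fos* and *Ptp4a2* and in 1 each of *Nfkbia*, *Rassf3*, *Fgd2*, *Ctla4*, and *Ppara*. *3930402G23Rik*, *Rpl30-ps6*, and *4732465J04Rik* had AP-1 motifs in 0. Over all near intergenic regions the shares were 4.60% for PU.1 and 10.95% for AP-1.

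**Figure D4:**
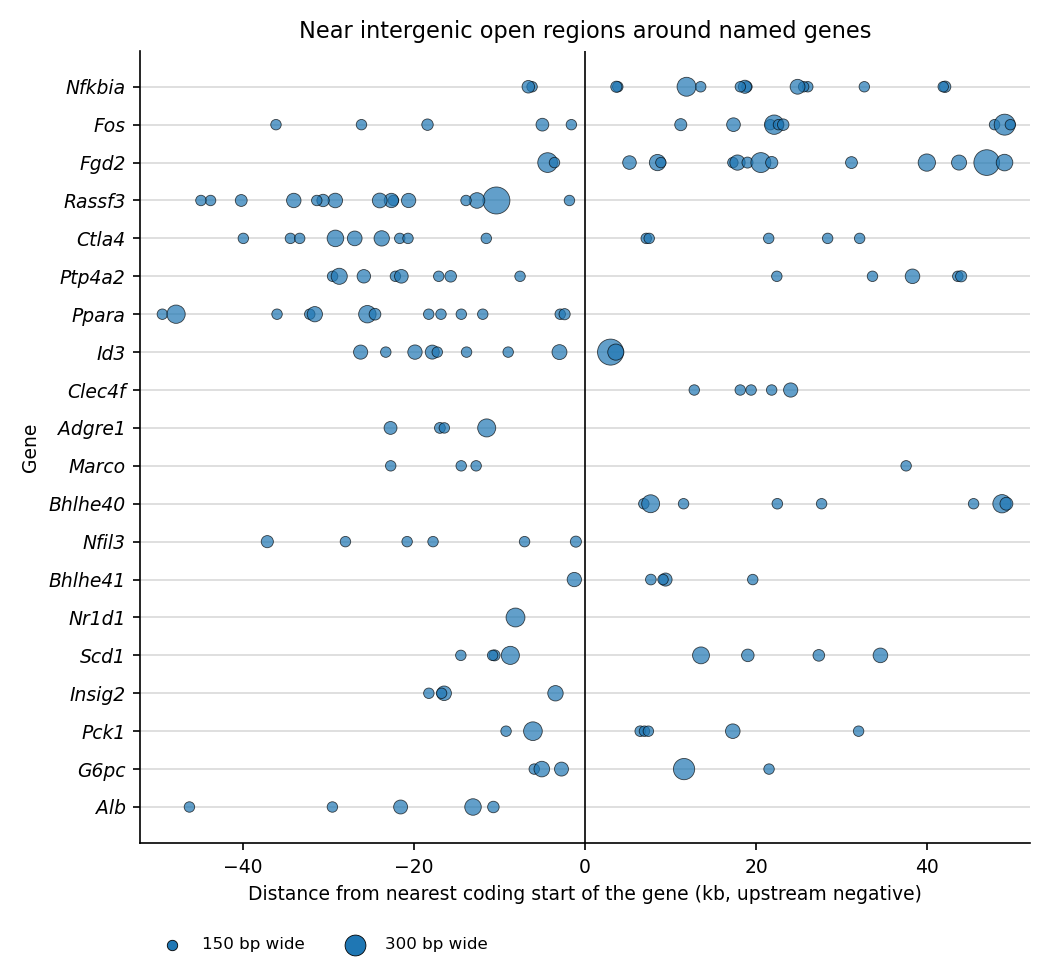
Near intergenic open regions around named genes (y axis) by distance from the nearest coding start of that gene in kb (x axis, upstream negative, vertical line at the start). Each circle is 1 region and its area grows with the square of the width. *Rassf3* and *Ppara* have all of their 15 and 13 regions upstream, *Clec4f* and *Bhlhe40* all of their 5 and 8 downstream.

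Kupffer cell and macrophage genes had near intergenic regions at a density above that of all genes. Of the 24 genes listed, 23 were matched on chromosomes 1 to 19, with the older symbols Emr1 for *Adgre1*, Sfpi1 for *Spi1*, and Tcfec for *Tfec*, and *Vsig4*, on X, was not analysed here. Of these, 15 had a region (31.6% of all coding genes did) and 16 had an open start (58.0% of all coding genes did). Together they had 40 regions, or 58.2 per Mb (41.6 to 79.3), an interval that lies above the 29.9 of all genes and includes the 44.7 of genes with an open start. *Id3* had 10, from 26.2 kb upstream to 3.61 kb downstream of its start, and the 3 farthest upstream held AP-1 motifs. *Clec4f* had 5, all downstream and from 12.8 to 24.1 kb, with AP-1 in the 2 farthest. *Adgre1*, which encodes F4/80, had 4 between 11.5 and 22.7 kb upstream. The scavenger receptor gene *Marco* had 4, and the cathepsin gene *Ctss* had 3. Over the list, AP-1 was found in 6 of 40 regions (15%, 7.06 to 29.1) and PU.1 in 1 (2.5%, 0.443 to 12.9). These intervals include the shares over all near intergenic regions, 10.95% and 4.60%.

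Genes of recruited macrophages and monocytes had regions in 7 of 12 cases, 19 in all (51.7 per Mb, 31.1 to 80.7), and 4 of 12 had an open start. The shares over all coding genes were 31.6% with a region and 58.0% with an open start. *Cd9*, a tetraspanin of lipid-associated macrophages, had 7 and *Ly6c2*, a marker of classical monocytes, 4. *Ccr2*, *Cx3cr1*, and *S100a9* had 2 each, and *Itgam* and *Trem2* 1 each.

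Genes of other liver cells had regions too, beside 31.6% of all coding genes with a region and 58.0% with an open start. Of 21 hepatocyte genes, 17 had a region and 20 an open start, and their 45 regions made 85.7 per Mb (62.5 to 115), the highest density among the lists of cell type genes, with an interval that overlapped that of the Kupffer cell list. *Pck1*, the rate-limiting enzyme of gluconeogenesis, had 7, *Alb* and the glucose-6-phosphatase gene *G6pc* 5 each, and *Ahsg*, *Ass1*, *Cyp3a11*, *Fga*, and *Tat* 3 each. All of the *Alb* regions were upstream, at 10.7, 13.1, 21.5, 29.5, and 46.2 kb, and the HNF4 motif shown above is in the one at 21.5 kb. Of the 45 regions, 3 held HNF4 or FOXA (6.67%, 2.29 to 17.9), beside 5.17% of all near intergenic regions. AP-1 or PU.1 was held by 1 (2.22%, 0.393 to 11.6), beside 15.1% of all. Liver endothelial genes had regions in 13 of 20 cases (30 regions, 58.0 per Mb, 39.1 to 82.8), with 4 each near *Bmp2* and *Ehd3* and 3 each near *Cdh5*, *Fcgr2b*, *Flt1*, and *Nrp1*.

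Stellate cell genes had regions in 11 of 20 cases, mostly 1 each. Their 13 regions made 17.8 per Mb (9.48 to 30.5), an interval that includes the 29.9 of all genes, with 2 each near *Col1a2* and *Ecm1*. Genes of neurons and muscle had regions in 5 of 20 cases (8 regions, 19.1 per Mb, 8.24 to 37.6), 3 of them near *Snap25*, and 3 of 20 had an open start. Lymphocyte genes had them in 3 of 12 cases, with 6 of 9 regions near *Klrb1c*, a receptor of natural killer cells (52.3 per Mb, 23.9 to 99.2). Among all coding genes, 31.6% had a region and 58.0% an open start. The first share lies within the intervals of neuron and muscle genes (25%, 11.2 to 46.9) and of lymphocyte genes (25%, 8.89 to 53.2). It lies below that of stellate genes (55%, 34.2 to 74.2).

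All 18 circadian clock genes had an open start, and 12 had 34 near intergenic regions (67.3 per Mb, 46.6 to 94.0). A start was open in 58.0% of all coding genes, and 31.6% of them had a region, against 66.7% (43.7 to 83.7) of the clock list. *Bhlhe40*, which encodes a repressor of clock activators, had 8, all of them 6.89 to 49.3 kb downstream. *Nfil3*, a repressor of D-box genes, had 6, all upstream, *Bhlhe41* had 5, *Npas2* 4, *Arntl* (BMAL1) 3, and *Cry2* 2. *Nr1d1* had 1, the region with an E-box shown above. E-boxes were found in 5 of the 34 regions (14.7%, 6.45 to 30.1), 3 of them near *Bhlhe41*, beside 6.12% of all near intergenic regions.

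Of 20 genes of SREBP signaling and sterol synthesis, 19 were matched and all of these had an open start, with *Hmgcs1* not analysed here. Near 12 of them (63.2%, 41.0 to 80.9) were 28 regions (50.9 per Mb, 33.8 to 73.5). For all coding genes the shares were 31.6% with a region and 58.0% with an open start. The fatty acid desaturase gene *Scd1* had 8, with 4 on either side, and *Insig2*, which retains SCAP in the endoplasmic reticulum, had 4. *Elovl6*, *Insig1*, *Mvk*, and *Sqle* had 2 each. An SRE was found in 1 of the 28 regions (3.57%, 0.633 to 17.7), beside 0.920% of all near intergenic regions. An E-box was found in 1 (3.57%, 0.633 to 17.7), beside 6.12% of all, and AP-1 in 4 (14.3%, 5.70 to 31.5), beside 10.95%. PU.1, C/EBP, and IRF were found in 0. FOXA, not a motif chosen for this list, was found in 4 (14.3%, 5.70 to 31.5), beside 4.17% of all. These 4 included 2 of the 4 near *Insig2*.

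Genes for AP-1 proteins had the highest density of the 11 lists. Their interval overlapped those of the ribosomal protein, hepatocyte, lymphocyte, and clock lists. Of 13 genes, 12 had an open start and 8 had 39 regions (124 per Mb, 88.4 to 170). *Fos* had 14, *Batf* 7, *Fosb* and *Batf3* 5 each, *Atf3* 4, and *Junb* 2. AP-1 motifs were found in 7 of the 39 regions (17.9%, 8.98 to 32.7) and GC boxes in 12 (30.8%, 18.6 to 46.4). The shares over all near intergenic regions were 10.95% and 9.14%. Ribosomal protein genes, which every cell expresses, had regions in 8 of 20 cases (40%, 21.9 to 61.3), and all 20 had an open start. Their 18 regions made 88.3 per Mb (52.3 to 140), with 6 near *Rpl11*, 4 near *Rps14*, and 3 near *Rpl3*. The share of all coding genes with a region was 31.6%, which lies within the ribosomal interval and below that of AP-1 genes (61.5%, 35.5 to 82.3). An open start was found in 58.0% of all coding genes. Since the lists differ in how many of their genes have an open start, from 3 of 20 to all, and all genes with an open start had a higher density together than all those without, the part of the open start in a list's density was not tested. The genes are also few, and single genes such as *Fos* hold a large share of a list's regions.

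**Figure D5:**
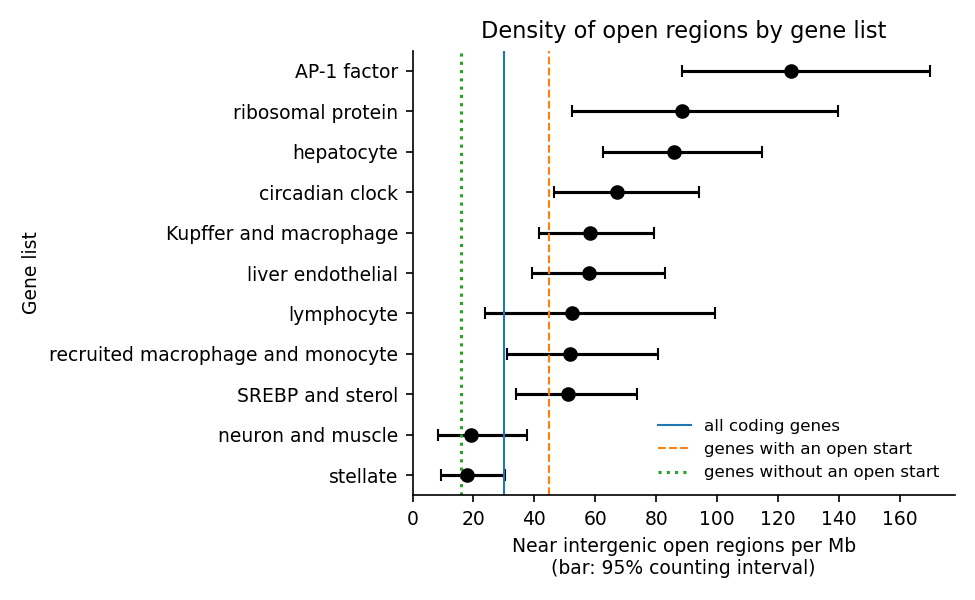
Near intergenic open regions per Mb of DNA that met the rule (x axis) for the genes of 11 lists (y axis), with 95% Poisson intervals. Vertical lines give all coding genes (29.9), genes with an open start (44.7), and genes without one (15.98). AP-1 factor genes (124) lie highest and stellate genes (17.8) lowest.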

How the data were processed

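Adapters had been trimmed and reads aligned to mm9 with Bowtie by the Kundaje laboratory ATAC pipeline, alignments of replicates had been merged, and peaks had been called. The peak caller and its threshold are not given in the sources used here, and HOMER is named in the submitters' processing notes. The deposited list of the authors holds starts and ends only (unit: other, coordinates), with no normalized read count. The 18 libraries enter as 1 list, so no test between groups was made.

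Midpoints were placed against GENCODE vM1 on NCBIM37 (mm9), with the 5′ end of every transcript as a start, in Python 3.11.15 with NumPy 2.4.6, pandas 2.3.3, SciPy 1.17.1, and matplotlib 3.10.9. The same rule was applied to every known base to obtain densities. Shares have 95% Wilson intervals, densities exact Poisson intervals, and differences of shares Newcombe intervals. On simulated data, 0 of 600 regions were misplaced and 400 of 400 planted motifs were found.

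The regions and lists were chosen with earlier results of these data known. Named were the 10 genes with the most regions, up to 6 genes per list with ties added, the widest and the narrowest regions, and those at the distance limits. Sequences were those nearest to a start with a motif of the list, the widest with AP-1 and PU.1, and, chosen after values were seen, 2 with CTCF. Results of 2 listed genes are not reported here.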

Additional observations from a re-analysis of the deposited data

How the results depend on the processing

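Of 55 alternative values of 10 results, 33 were counted as unchanged. For shares and densities this meant within the interval of the reported value, and for counts within 1.5 times of it. The mean GC content (51.0%) was reported with an SD and no interval. It was counted as unchanged in every alternative, with values from 50.7% (joined regions) to 52.5% (regions of 200 bp or more). With 1 start per gene, 73.9% of regions were upstream. A coding limit of 25 kb gave 32.6 regions per Mb, 71.0% upstream, and 49.3% within 5 kb of another. With the whole region more than 1 kb from every gene, there were 29.1 per Mb and 69.6% upstream. Regions of 200 bp or more numbered 4135 (8.49 per Mb, 66.9% upstream), with AP-1 in 10.4%, PU.1 in 3.89%, CTCF in 3.46%, 24.4% within 5 kb of another, and 2873 genes. Joining regions at most 500 bp apart gave 27.0 per Mb and 40.3% within 5 kb of another. Among regions with no other within 1 kb, 51.7% had the commonest width. A search in the region itself found AP-1 in 9.92% and PU.1 in 4.20%, and one in 400 bp found AP-1 in 17.4%, PU.1 in 6.86%, and CTCF in 3.18%. A longer or shorter search finds more or fewer matches by construction, as a minimum width or joining leaves fewer regions, and the cause of the other changes was not tested. No paired analysis was possible because per-library values are lacking, and for the same reason no replicate could be left out. The peak threshold and the depth are unknown, so that a region missing from the list cannot be called closed.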

Other observations

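Density differed between chromosomes. It was lowest on chromosome 14 (22.5 near intergenic regions per Mb, 20.6 to 24.5) and highest on chromosomes 15 (41.6, 38.7 to 44.7) and 11 (40.9, 38.4 to 43.5), with intervals that did not overlap between the lowest and the highest. Chromosome 13 stood out for a low density of near (24.2) beside the highest density of far intergenic regions (13.1 per Mb). Between genes transcribed away from each other there were 4400 regions at 31.1 per Mb (30.2 to 32.0), between genes in the same direction 7732 at 29.1 (28.4 to 29.7), and between converging genes 2408 at 30.7 (29.5 to 32.0).

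Motif shares differed between widths. GC boxes were found in 6.85% of regions of the commonest width and in 14.7% (11.4 to 18.8) of the 353 regions wider than 302 bp. CTCF was found in 2.06% (1.76 to 2.41) at the commonest width and in 3.68% (3.12 to 4.32) between 200 and 302 bp, and its share above 302 bp rests on 4 regions (1.13%, 0.442 to 2.88). PU.1 went from 5.16% (4.68 to 5.69) at the commonest width to 3.86% (3.29 to 4.52) between 200 and 302 bp. RUNX regions were narrower on average (176 ± 40.4 bp, n = 931) than those without the motif (184 ± 47.7 bp). The narrowest region, of 45 bp, lay 38.0 kb upstream of *Csf2ra*, which encodes the receptor subunit for GM-CSF. This region was below the commonest width, the smallest in the other classes, and why was not tested.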
